A study of Mus musculus with 12 samples.

Results

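The response to doxycycline (dox) was followed in fibroblasts that carry NLS-N-VEGF under a dox-inducible promoter. The comparison used 6 of the 12 libraries of the series, chosen by their labels: 3 from NLS-N-VEGF cells without dox and 3 from NLS-N-VEGF cells with dox. The labels call the cells mouse embryonic fibroblasts, and the study's methods name the line NIH3T3, an established line of mouse embryo fibroblasts. The other 6 libraries, 3 without and 3 with dox, come from cells with N-VEGF, the same insert without the nuclear localization sequence (NLS), and are used here for comparison only. All cells of both populations were infected with a lentiviral Tet-On vector, which also carries the Tet activator, and were selected with puromycin as a pool of infected cells, not as a clone. Where dox was given, it was given for 16 h. No cells without an insert were among the libraries, so an effect of dox itself and an effect of the induced protein cannot be told apart in this comparison.

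VEGF-A, the growth factor that drives the growth of blood vessels, is also translated from an upstream start codon into a longer form, and N-VEGF is the amino-terminal part that is cut from it. In a Tet-On vector, dox binds the Tet activator, which then switches on the promoter in front of the insert. Dox is also an antibiotic of the tetracycline class, which can slow protein synthesis on mitochondrial ribosomes. The comparison asks which transcripts move with dox in cells that carry NLS-N-VEGF, under normal oxygen. Exposure to dox, expression of the insert and its entry into the nucleus change together in it.

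The populations differ by 16 codons of the insert. The forward oligos with which the inserts were amplified are given here because they hold this difference, with the 48 inserted bases in capitals. They stand between the codons of a histidine tag and the start of the N-VEGF sequence.
N-VEGF forward oligo: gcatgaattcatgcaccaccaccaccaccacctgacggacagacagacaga
NLS-N-VEGF forward oligo: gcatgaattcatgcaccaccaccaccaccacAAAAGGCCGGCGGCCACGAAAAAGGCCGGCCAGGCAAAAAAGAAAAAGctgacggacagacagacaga

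Each library is labelled with a number and a suffix, which join the libraries in 3 pairs. They are called pair 1a and pair 2a, which share a suffix, and pair 2b here, and per-library values are given in this order. Total counts were 13549331 to 18982127 in the 6 libraries, and 3 counts, taken as the lowest level the depth can show, equalled 0.158 to 0.221 CPM, which are counts scaled to a library size of 1000000. Levels are given as normalised CPM, except for the cell type markers, whose CPM are scaled to total counts alone. Levels of different genes are not compared, as CPM are not per length. In a principal component analysis of the 6 libraries, the first component (58.6% of the variance) separated pair 2b from the others. The second (17.3%) placed the 3 libraries without dox between -11.2 and -4.28 and those with dox between 1.24 and 12.2. Of 10 fibroblast markers, 9 were at or above a mean of 1 CPM and their summed level was 12531 to 13057 CPM without and 11252 to 13498 CPM with dox, while Fap stayed at or below 0.158 CPM. The summed levels of 8 markers each of epithelial, endothelial, immune, muscle and neural cells stayed between 2.26 and 34.5 CPM in all 6 libraries. Among them Epcam, Adgre1, Cd3e, Myod1 and Sox10 were at 0. Others were detected, such as the neural marker Tubb3 at 20.3 to 29.5 CPM and the endothelial marker Cdh5 at 1.855 to 3.47 CPM. Of the immune markers, Csf1r was at 4.69 to 10.1 CPM and Cd68 at 2.79 to 5.53 CPM. In bulk RNA, fewer cells of a type and less RNA per cell cannot be told apart. The labels do not say that the libraries came from separate cultures, so p-values measure the spread between these libraries, which may be technical.

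Few genes passed in NLS-N-VEGF cells when all 12 libraries were fitted together, and the number depended on the setting. In edgeR's quasi-likelihood test with the pair as a block, 17 of 13608 genes passed an adjusted p under 0.05 (0.125%), 12 of them higher (0.0882%) and 5 lower (0.0367%) with dox. All 17 moved in the same direction in all 3 pairs, which a test with the pair as a block favours. Of the 17, 8 moved at least 2-fold, 5 up and 3 down. Without the block, 3 of 13608 genes passed (0.022%), which were Adgrg1, Spon2 and Map4k3. The 3 libraries with dox and the 3 without did not overlap for 10 of the 17 genes, against 9.25% of all genes tested. In either direction 989 genes had an unadjusted edgeR p under 0.05, 593 higher (4.36%) and 396 lower (2.91%). Leaving out a single NLS-N-VEGF library gave between 6 and 118 genes. Without the dox library of pair 1a or 2a there were 6 each time, and without that of pair 2b 118, among them all 17. The 6 genes that passed without any one of these libraries were the construct, Adgrg1, Etl4, Spon2, Map4k3 and Sh3rf1. Without the no-dox library 1a of N-VEGF cells, which enters the estimate of the spread, 58 genes passed, all 17 included. In the 6 NLS-N-VEGF libraries alone, 255 of 13059 genes passed, again with all 17.

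The construct was examined first, as it checks which libraries were labelled with dox. Its row in the table (orf_Insertion) covers positions 1 to 592 of a contig of its own. It held 5, 7 and 12 counts without dox and 48, 35 and 173 counts with dox. As levels these are 0.288, 0.440 and 0.857 CPM without and 2.57, 2.58 and 10.2 CPM with dox. All 3 libraries with dox lay above all 3 without, and the dox library of pair 2b held the most. The fitted log2 change was 3.19 (SE 0.33, edgeR adjusted p 9.3e-05). In N-VEGF cells the row rose too, from 0.314, 0.616 and 0.408 CPM to 7.56, 8.08 and 17.9 CPM. It therefore does not tell NLS-N-VEGF from N-VEGF libraries.

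**Figure D1:**
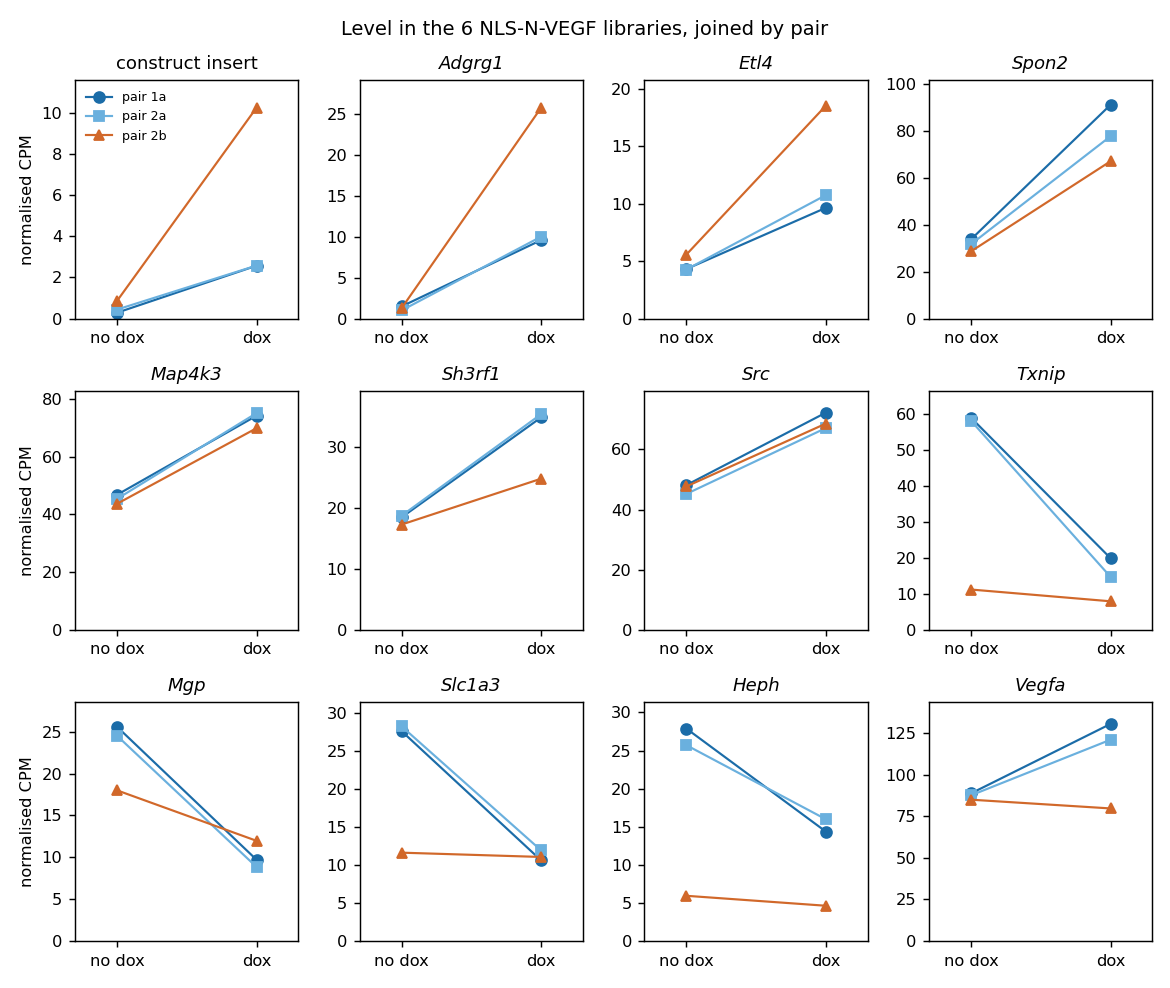
Normalised CPM (y axis, from 0, its own scale in each panel) of the construct insert and 11 genes in the 6 NLS-N-VEGF libraries without and with dox (x axis), with 1 line for each of the 3 pairs. The construct, Adgrg1 and Etl4 reached their highest levels with dox in pair 2b (10.2, 25.8 and 18.5 CPM), whereas Txnip and Slc1a3 fell from about 59.1 and 27.7 CPM in pair 1a but started at 11.2 and 11.6 CPM in pair 2b.

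Adgrg1 and Etl4 were, like the construct, highest with dox in pair 2b. Adgrg1 (chromosome 8, 94974751 to 95014217, plus strand, build GRCm38), an adhesion G protein-coupled receptor also known as GPR56, had 1.495, 1.01 and 1.29 CPM without and 9.59, 10.01 and 25.8 CPM with dox. Every library with dox was above every library without, with the highest level in pair 2b. Its fitted log2 change was 3.47 (SE 0.22, edgeR adjusted p 2.3e-07), an 11.1-fold rise and the largest of the 17. Etl4 (chromosome 2, 19909780 to 20810713, plus strand), the sickle tail gene, had 4.31, 4.27 and 5.57 CPM without and 9.64, 10.7 and 18.5 CPM with dox. The groups did not overlap, and pair 2b was again the highest (log2 fold change 1.42, SE 0.14, edgeR adjusted p 3.5e-05). Without dox, too, Etl4 was highest in pair 2b. The dox library of pair 2b held the most construct counts, while 7 of the 12 genes that rose did so least in that pair. With 3 pairs no correlation was computed, and a relation to the level of the construct was not tested. No other of the 9 tested adhesion G protein-coupled receptors passed. Adgra3 was the next by p, at 55.7, 53.8 and 52.1 CPM without and 73.2, 71.3 and 52.8 CPM with dox (edgeR adjusted p 0.363).

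Among the other genes that rose with dox, Loxl4 and Siglecg were also highest with dox in pair 2b. Spon2 (chromosome 5, 33198184 to 33218455, minus strand) encodes spondin 2, a secreted protein of the extracellular matrix. It rose from 33.8, 31.7 and 28.7 CPM to 91.2, 77.8 and 67.1 CPM, with no overlap, and pair 2b was the lowest on both sides. Its fitted log2 change was 1.32 (SE 0.10, edgeR adjusted p 8.0e-07), and its pair ratios of 1.43, 1.29 and 1.22 were the closest to each other among the 5 genes that rose at least 2-fold. Loxl4 (chromosome 19, 42593982 to 42612813, minus strand), a lysyl oxidase-like enzyme that cross-links collagen, rose from 12.7, 12.9 and 14.3 CPM to 21.9, 17.7 and 22.2 CPM (log2 fold change 0.63, edgeR adjusted p 0.0141). Without dox all libraries were below all libraries with dox.

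The signalling genes Map4k3, Sh3rf1 and Src rose with dox. Map4k3 (chromosome 17, 80580512 to 80728093, minus strand) encodes a kinase that acts upstream of JNK and in the response to amino acids. It rose from 46.8, 45.4 and 43.7 CPM to 74.2, 75.2 and 69.9 CPM, with no overlap and pair ratios of 0.66, 0.73 and 0.68 (log2 fold change 0.69, SE 0.08, edgeR adjusted p 3.6e-04). Sh3rf1 (chromosome 8, 61223872 to 61396071, plus strand), which encodes the JNK scaffold and ubiquitin ligase POSH, rose from 18.5, 18.7 and 17.3 CPM to 34.9, 35.4 and 24.8 CPM. The groups did not overlap and pair 2b rose least (log2 fold change 0.79, SE 0.09, edgeR adjusted p 4.8e-04). Src (chromosome 2, 157418444 to 157471862, plus strand), a tyrosine kinase of focal adhesions, rose from 48.1, 45.2 and 47.7 CPM to 72.3, 67.1 and 68.6 CPM. Its pairs were nearly alike, with log2 ratios of 0.58, 0.57 and 0.52 (log2 fold change 0.56, SE 0.09, edgeR adjusted p 0.0087). In the list of MAP4K kinases and the JNK module, Map4k3 and Sh3rf1 were the only 2 of 15 tested genes that passed, and the list's median was 0.03, against 0.00 over all genes tested. Of the exon bases of Map4k3 and Sh3rf1, 1.09% and 1.75% are shared with an antisense gene, and the strand setting of the counting was not stated.

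The remaining genes that rose were Mid2, Nbeal1, Car6 and Siglecg. Mid2 (chromosome X, 140664599 to 140767715, plus strand), a ubiquitin ligase that binds microtubules, rose from 15.4, 16.3 and 20.5 CPM to 25.7, 26.5 and 24.6 CPM, with no overlap (log2 fold change 0.57, edgeR adjusted p 0.0348). Nbeal1 (chromosome 1, 60180599 to 60338328, plus strand), a large protein with a BEACH domain, rose from 47.9, 47.3 and 36.4 CPM to 65.2, 75.5 and 45.3 CPM (log2 fold change 0.48, edgeR adjusted p 0.028). Its groups overlapped, as pair 2b was the lowest on both sides. Car6 (chromosome 4, 150187015 to 150201332, minus strand), a secreted carbonic anhydrase, rose from 9.37, 10.2 and 2.71 CPM to 20.3, 18.2 and 4.08 CPM (log2 fold change 0.90, edgeR adjusted p 0.0046). Siglecg (chromosome 7, 43408204 to 43418358, plus strand), a lectin known from B cells, rose from 1.61, 2.33 and 8.50 CPM to 4.45, 6.33 and 14.2 CPM (log2 fold change 1.12, edgeR adjusted p 0.028). Pair 2b was the lowest pair for Car6 and the highest for Siglecg, and both groups overlapped for that reason. The leukocyte marker Ptprc stayed at or below 0.243 CPM in the 6 libraries, while the immune markers Csf1r and Cd68 reached 10.1 and 5.53 CPM.

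The 5 genes that fell were Txnip, Mgp, Slc1a3, Heph and Fam135b, and pair 2b moved least in each. Txnip (chromosome 3, 96557957 to 96561883, plus strand) encodes the thioredoxin-interacting protein, an arrestin-domain protein that limits glucose uptake and is induced by glucose. It fell from 59.1, 58.2 and 11.2 CPM to 19.9, 14.7 and 7.93 CPM. Pair 2b was low without dox already, so the groups overlapped, and the pair ratios were -1.56, -1.97 and -0.49 (log2 fold change -1.45, SE 0.21, edgeR adjusted p 0.0044). Of its exon bases, 19.4% are shared with the antisense gene Gm15441, so its counts are uncertain. Mgp (chromosome 6, 136872435 to 136875823, minus strand), the matrix Gla protein that inhibits calcification, fell from 25.6, 24.5 and 17.99 CPM to 9.70, 8.83 and 11.96 CPM. It was the only one of the 5 whose groups did not overlap (log2 fold change -1.13, SE 0.17, edgeR adjusted p 0.0049). 

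Transporter and metal genes were among them as well. Slc1a3 (chromosome 15, 8634124 to 8710764, minus strand), a glutamate and aspartate transporter, fell from 27.7, 28.3 and 11.6 CPM to 10.6, 11.9 and 11.1 CPM (log2 fold change -0.93, SE 0.17, edgeR adjusted p 0.0415). Its pair ratios were -1.37, -1.24 and -0.07, so pair 2b hardly moved. Heph (chromosome X, 96455359 to 96574485, plus strand), hephaestin, a copper-dependent ferroxidase of iron export, fell from 27.9, 25.7 and 5.93 CPM to 14.4, 15.97 and 4.62 CPM (log2 fold change -0.73, SE 0.11, edgeR adjusted p 0.0087). Fam135b (chromosome 15, 71431609 to 71727838, minus strand) fell from 5.75, 6.54 and 1.78 CPM to 1.45, 1.99 and 1.302 CPM (log2 fold change -1.51, SE 0.25, edgeR adjusted p 0.0166). Pair 2b started lower than the other pairs for these 3 genes and for Txnip, and the groups overlapped in all 4.

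**Figure D2:**
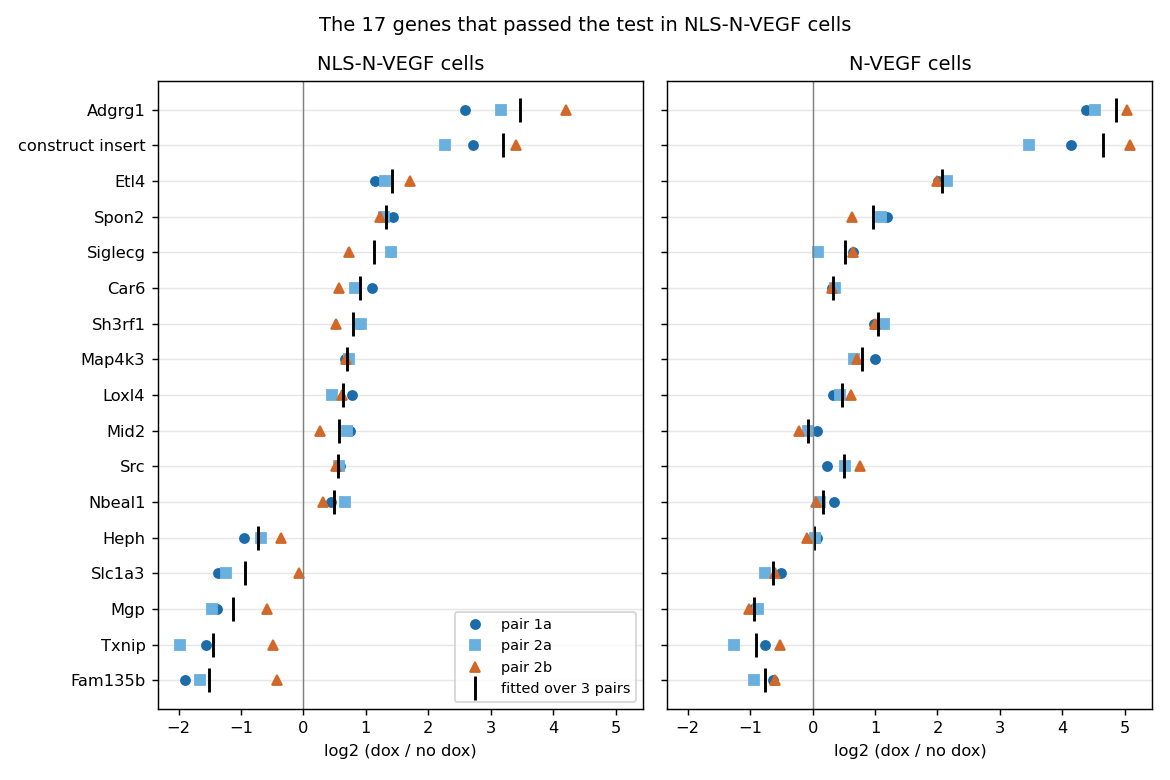
Log2 ratio of dox to no dox (x axis) in each of the 3 pairs (coloured symbols) and as fitted over the pairs (black bars) for the 17 genes that passed the test in NLS-N-VEGF cells (y axis), in NLS-N-VEGF cells (left) and N-VEGF cells (right). On the left all 3 pairs keep each gene's direction, and pair 2b lies nearest to 0 for all 5 genes that fell, while on the right Heph and Mid2 lie around 0.

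The same 17 genes were compared with their dox effect in N-VEGF cells, where 15 of 13608 genes passed (0.11%). Of the 17, 8 also passed there, and 15 had the same sign. No gene passed for the difference of the dox effects (0% at an edgeR adjusted p under 0.05), with 464 at an unadjusted p under 0.05, and DESeq2 also gave 0, with 295. The difference was taken as the log2 effect in NLS-N-VEGF minus that in N-VEGF cells, with its sign. At an unadjusted p under 0.05 it lay above 0 for 244 genes (1.79%) and below 0 for 220 (1.62%), and 9 of the 17 were among them. It was -1.39 (SE 0.38) for Adgrg1 and -0.65 (SE 0.19) for Etl4, at unadjusted edgeR p of 0.0019 and 0.0037. For the construct it was -1.46 (SE 0.56), at an unadjusted edgeR p of 0.019. Heph had a log2 fold change of 0.02 and Mid2 of -0.07 in N-VEGF cells, with differences of -0.75 (SE 0.16) and 0.63 (SE 0.15) and unadjusted edgeR p of 1.9e-04 and 4.4e-04. All adjusted p of these differences rounded to 1.

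Txnip has a promoter that holds the paired motif to which the glucose-responsive factors ChREBP and MondoA are known to bind with their partner Mlx. The motif was searched as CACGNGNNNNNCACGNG on both strands in the 250 bases before the start of each gene, in RefSeq sequences of build GRCm38.p6. Of 9870 tested genes with a sequence, 10 held it (0.101%). The windows of Txnip and of its relative Arrdc4, an arrestin-domain gene with the same known regulation, are shown because both genes were lower with dox in pairs 1a and 2a. In Txnip the capitals mark the paired motif, 85 to 69 bases before the start. The Arrdc4 window does not hold the paired motif. Its capitals mark the single E box CACGTG, 193 to 188 bases before the start, which 965 of the 9870 genes hold (9.78%). Of the called genes, 11 had a sequence. Txnip alone of them held the paired motif, and Car6 and Etl4, which rose with dox, held the E box. Whether either motif has a part in the response to dox was not tested.
Txnip, chr3:96557707-96557956, plus strand: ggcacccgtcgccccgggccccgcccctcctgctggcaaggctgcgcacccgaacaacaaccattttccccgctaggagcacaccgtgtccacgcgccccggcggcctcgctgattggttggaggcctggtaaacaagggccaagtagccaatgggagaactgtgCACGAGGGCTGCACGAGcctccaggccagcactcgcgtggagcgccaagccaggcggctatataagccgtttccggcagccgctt
Arrdc4, chr7:68749239-68749488, minus strand: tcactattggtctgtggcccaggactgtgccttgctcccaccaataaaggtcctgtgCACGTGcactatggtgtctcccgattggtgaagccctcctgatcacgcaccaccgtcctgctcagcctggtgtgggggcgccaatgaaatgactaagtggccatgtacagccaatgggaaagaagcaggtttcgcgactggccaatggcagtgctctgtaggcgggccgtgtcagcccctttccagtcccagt

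Arrdc4 had 15.5, 17.04 and 3.64 CPM without and 7.07, 6.04 and 3.97 CPM with dox. Pairs 1a and 2a had log2 ratios of -1.12 and -1.48 and pair 2b one of 0.12, and the gene did not pass (edgeR adjusted p 0.0609). The other 9 genes with the paired motif had log2 fold changes from -0.11 to 0.24 and none of them passed. In the list of 7 tested genes that holds Txnip, the other arrestin-domain genes Arrdc1 to Arrdc4 and the factors Mlx and Mlxip (MondoA), Txnip alone passed, and the median was -0.06. Genes of glycolysis and glucose uptake gave no call among 23 tested, 9 of them above 0, with a median of -0.02. Against 4.36% of all genes, 2 of them were higher at an unadjusted p under 0.05. These were the enolase Eno3, with 12.997, 12.8 and 22.0 CPM without and 22.5, 19.3 and 26.0 CPM with dox (edgeR adjusted p 0.159), and Pfkfb4 (edgeR adjusted p 0.575).

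Besides single genes, 38 lists of genes of known function were followed. Each is given by its counts and its median log2 fold change, beside a median of 0.00 over all 13608 genes tested, of which 50.3% lay above 0. Genes of a list vary together, so the members are not independent of each other. Of the 38 lists, 8 hold a called gene.

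Genes of sterol and fatty acid synthesis were the list with the most uniform direction. These enzymes build cholesterol and fatty acids and are induced together by the SREBP transcription factors. All 28 tested genes lay above 0, with a median of 0.14 (1.10-fold), and 26, 27 and 20 of the 28 lay above 0 in pairs 1a, 2a and 2b, with medians of 0.19, 0.19 and 0.03. Their summed level was 7654, 7645 and 7709 CPM without and 8723, 8797 and 7847 CPM with dox, so the groups did not overlap and pair 2b moved least. No member passed over all genes, and 6 of 28 had an unadjusted p under 0.05, all higher, against 4.36% of all genes. Leaving out 1 NLS-N-VEGF library gave 2 to 12 such genes, with 2 without either library of pair 1a, 3 without either of pair 2a and 12 without no-dox library 2b. In the 6 NLS-N-VEGF libraries alone, 15 had such a p and 3 passed. Over all genes there, 1754 of 13059 had such a p and 255 passed. Nsdhl, of the late steps of cholesterol synthesis, had 81.9, 81.2 and 117.0 CPM without and 116.7, 113.6 and 124.1 CPM with dox (log2 fold change 0.35, SE 0.09, edgeR adjusted p 0.248). Acat2, of the first step of the pathway, had 156.9, 156.2 and 183.7 CPM without and 209.7, 201.1 and 185.2 CPM with dox (edgeR adjusted p 0.345). Idi1 had 215.9, 231.2 and 252.5 CPM without and 298.1, 284.4 and 268.2 CPM with dox (edgeR adjusted p 0.443). For these 3 enzymes the dox library of a pair was always the higher one, and the groups overlapped for Nsdhl alone.

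In N-VEGF cells the same 28 genes had a median of -0.10 and 6 of them lay above 0. The pair medians there were -0.11, -0.0049 and -0.14. For 27 of 28 genes the difference, NLS-N-VEGF minus N-VEGF cells, lay above 0, with a median of 0.23, and 13 of 28 had an unadjusted p under 0.05, all above 0, against 1.79% of all genes tested. None passed an adjusted p under 0.05. The count of 13 was 3 without the replicate block and 3 without the no-dox library 1a of NLS-N-VEGF cells, where the median difference was 0.20. It was 7 without the no-dox or the dox library 2a and 18 without no-dox library 2b at the same threshold. Without the no-dox library 1a of N-VEGF cells, the median difference was 0.19 and 26 genes lay above 0.

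**Figure D3:**
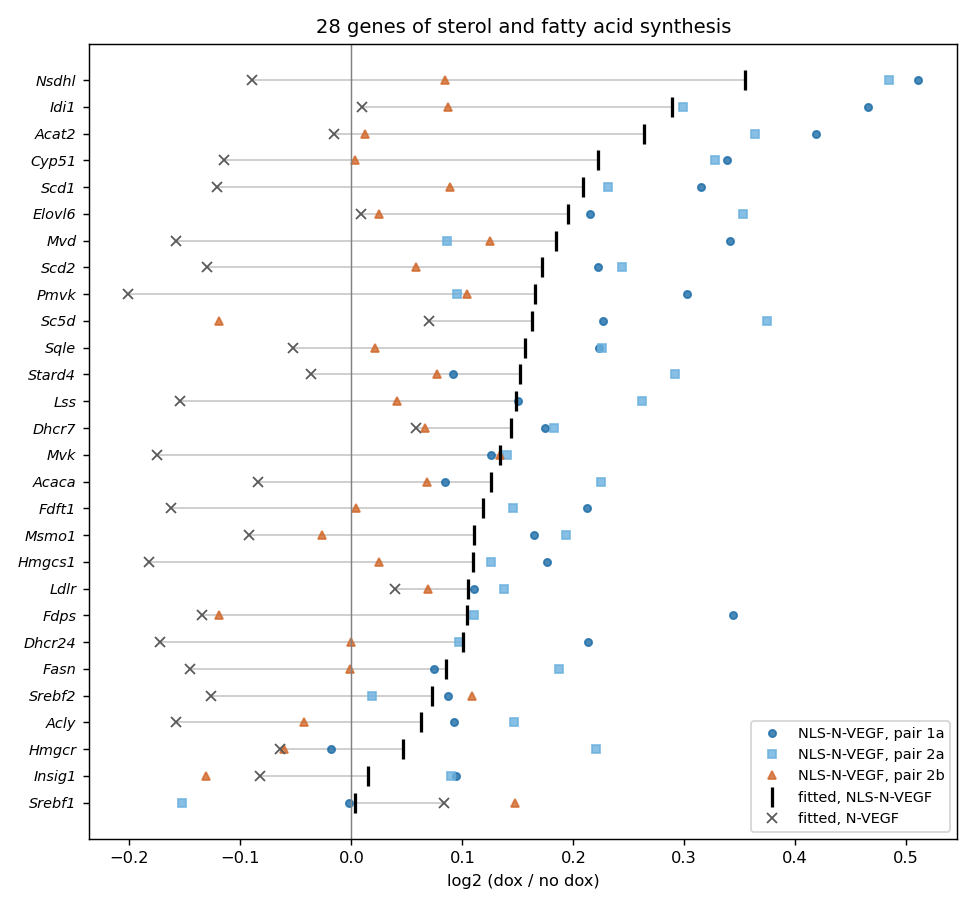
Log2 ratio of dox to no dox (x axis) for the 28 tested genes of sterol and fatty acid synthesis (y axis), with the 3 pairs of NLS-N-VEGF cells as coloured symbols, their fitted value as a black bar and the fitted value in N-VEGF cells as a cross. All 28 black bars lie above 0 and 6 of the 28 crosses do.

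Genes of the actin cytoskeleton and targets of the serum response factor (SRF), which turns changes in actin into transcription, had a median of 0.14. Of 25 tested, 19 lay above 0, and the pair medians of 0.13, 0.15 and 0.13 were alike. None passed, while 7 had an unadjusted p under 0.05 above and 1 below 0, against 4.36% and 2.91% of all genes. The count of 8 was 2 without the replicate block and 4 without the dox library of pair 1a, and without the latter the median was 0.13. In the 6 NLS-N-VEGF libraries alone, the count was 13 and 7 genes of the list passed. Over all genes there, 1754 of 13059 had an unadjusted p under 0.05 and 255 passed. Without the no-dox library of pair 1a the median was 0.08. Acta2, smooth muscle actin, had 58.8, 61.8 and 143.6 CPM without and 100.8, 92.7 and 214.7 CPM with dox (log2 fold change 0.65, SE 0.16, edgeR adjusted p 0.213). Each pair was higher with dox, but pair 2b was so much higher that the groups overlapped. Flna, which cross-links actin filaments, had 1442, 1349 and 1778 CPM without and 1749, 1755 and 1991 CPM with dox (edgeR adjusted p 0.273). Myl9, a light chain of myosin, had 3.85, 4.40 and 5.14 CPM without and 5.95, 7.14 and 9.35 CPM with dox, with no overlap (edgeR adjusted p 0.350). In N-VEGF cells the list's median was 0.05.

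Lists of adhesion genes were followed next. In the list of the Src family and focal adhesion, 14 of 16 lay above 0 with a median of 0.09, and Src alone passed. Of 27 integrins and laminins, 18 lay above 0 with a median of 0.10, and none passed. An unadjusted p under 0.05 was held by 5 above and 2 below 0, against 4.36% and 2.91% of all genes. Itgav, the alpha subunit of the vitronectin receptor, had 177.8, 172.1 and 155.9 CPM without and 222.4, 223.8 and 180.7 CPM with dox, with no overlap (edgeR adjusted p 0.229). Caveolins and cavins had a median of 0.00 with 4 of 6 above 0, and 3, 3 and 6 in the pairs. Among them Cav2 was the only member at an unadjusted p under 0.05, with 151.4, 150.6 and 157.4 CPM without and 197.8, 198.1 and 190.7 CPM with dox, again with no overlap (edgeR adjusted p 0.213).

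Mitochondrial genes were followed because dox acts on mitochondrial ribosomes. Of the 13 proteins encoded in the mitochondrial genome, 12 had transcripts above 0 with a median of 0.22. Without the dox library of pair 1a the median was 0.06, with 9 of 13 above 0, and without that of pair 2a it was 0.34. The pairs differed, with medians of 0.39, 0.00 and 0.22, and none passed. Of the 13, 5 were at an unadjusted p under 0.05, all higher, against 4.36% of all genes. Without the replicate block, without dox library 1a or without no-dox library 2b, 1 of 13 was, and without no-dox library 2a 3 were. In the 6 NLS-N-VEGF libraries alone, 8 were and 5 passed, against 1754 and 255 of all 13059 genes tested there. The summed level of all 13 was 46268, 50321 and 44512 CPM without and 57929, 49220 and 48103 CPM with dox, and the groups overlapped. The transcript closest to the threshold was mt-Nd3, a subunit of complex I, at 455.9, 502.6 and 455.6 CPM without and 680.7, 673.4 and 551.1 CPM with dox (edgeR adjusted p 0.387). In N-VEGF cells the list's median was 0.31. Of 79 respiratory chain subunits encoded in the nucleus, 19 lay above 0 (median -0.03), and of 77 mitochondrial ribosomal proteins 24 (median -0.04), with no call in either list. In pair 1a, 51 of the 79 and 44 of the 77 lay above 0, with pair medians of 0.04 and 0.02. Mitochondrial chaperones and proteases had a median of 0.00 over 18 genes.

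Cytosolic ribosomal proteins lay below 0 for 78 of 79 genes, with a median of -0.08. The pair medians were 0.00, -0.12 and -0.11, and none of the 79 passed or had an unadjusted p under 0.05. Genes at a mean of 1 CPM or more were also split in 5 equal classes of exon length. The median log2 fold change ran from -0.03 in the shortest class to 0.04 in the longest. The pairs ran from 0.014 to -0.001, from -0.05 to 0.09 and from -0.05 to 0.04. By GC content it ran from 0.06 in the lowest of 5 such classes to -0.03 in the highest. Here the pairs ran from 0.05 to -0.02, from 0.11 to -0.08 and from 0.02 to 0.02. A part of length or GC content in the ribosomal list was not tested. With offsets for GC content and length in the model, the median was -0.05 for the ribosomal list, 0.15 for the mitochondrial genome and 0.13 for the sterol list. Translation factors had a median of -0.03 over 55 genes with no call. Features that carry ribosomal RNA sequence, a group of 7 chosen after their values were seen (Gm26917, Gm23935, Mir6236, Gm15564, CT010467.1, Mir6240 and Lars2), held 4059 to 7945 CPM without and 2330 to 3351 CPM with dox. Their part in the other results was not tested.

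**Figure D4:**
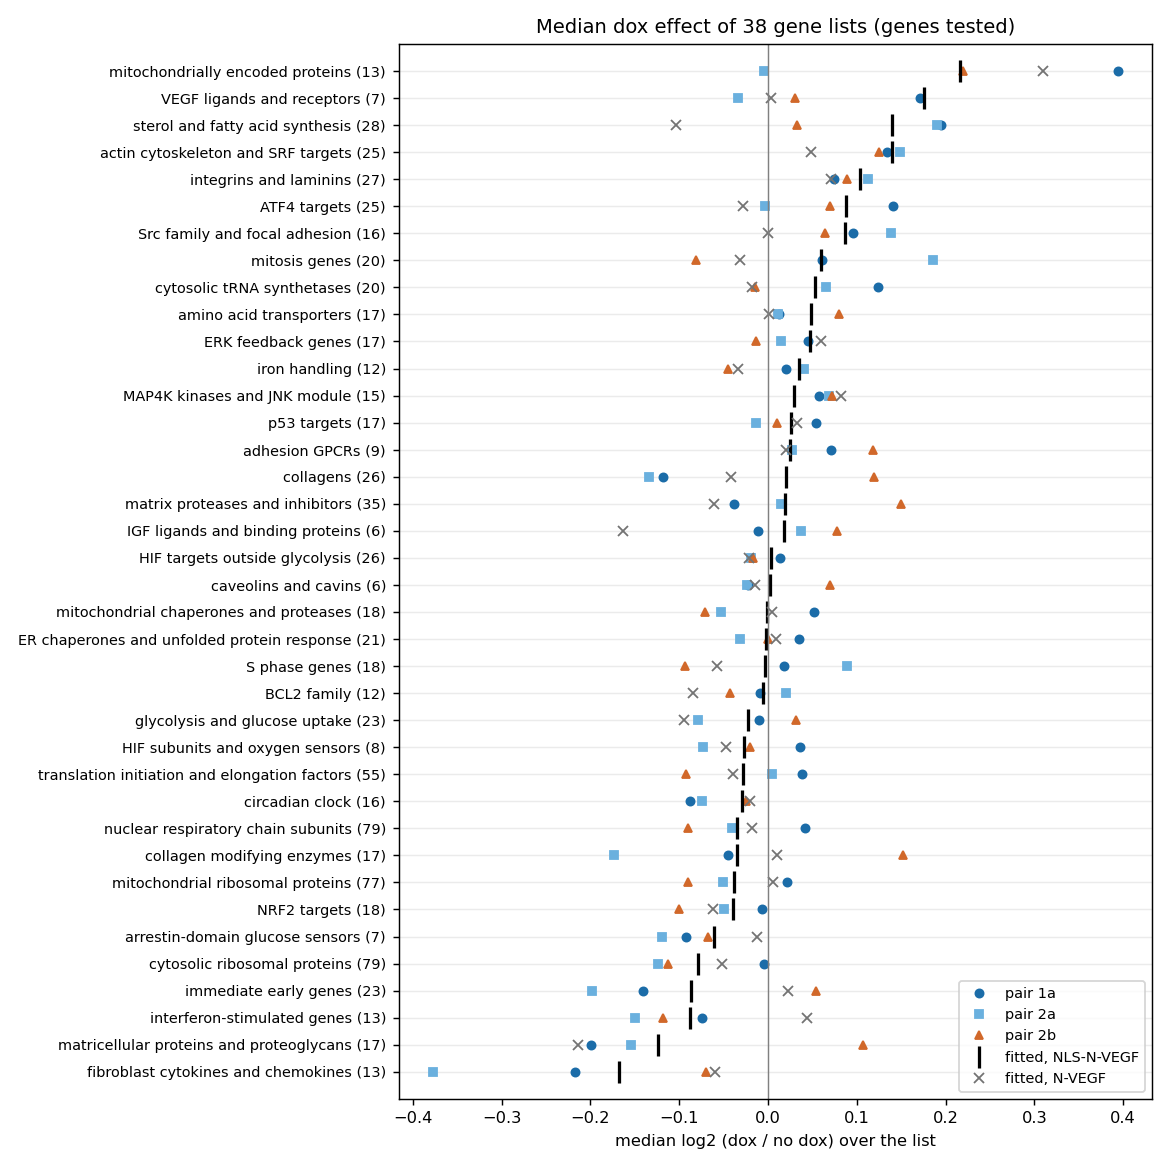
Median log2 ratio of dox to no dox (x axis) over each of 38 lists (y axis, with the number of genes tested), in the 3 pairs of NLS-N-VEGF cells (coloured symbols), fitted over these pairs (black bars) and fitted in N-VEGF cells (crosses). The fitted medians in NLS-N-VEGF cells run from -0.17 for cytokines and chemokines to 0.22 for the mitochondrial genome, and the pairs of many lists lie on both sides of 0.

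Genes of the VEGF and hypoxia pathways gave no call. Of 7 VEGF ligands and receptors, 5 lay above 0 with a median of 0.18. The pair medians were 0.17, -0.03 and 0.03, with 6, 3 and 4 of 7 above 0, and without either library of pair 1a the fitted median was 0.04. Their summed level was 368.2, 366.1 and 369.9 CPM without and 440.0, 429.8 and 398.6 CPM with dox, higher in each pair. Against 4.36% of all genes, 3 of them had an unadjusted p under 0.05, all higher. These were Vegfa with pair ratios of 0.56, 0.47 and -0.09 (edgeR adjusted p 0.363), and the co-receptors Nrp1 with 0.14, 0.27 and 0.47 (edgeR adjusted p 0.308) and Nrp2 with 0.23, 0.26 and 0.03 (edgeR adjusted p 0.585). Vegfa had 88.7, 87.5 and 84.9 CPM without and 130.4, 120.9 and 79.6 CPM with dox. Its groups overlapped through the dox library of pair 2b, and without that library it passed (log2 fold change 0.47, edgeR adjusted p 0.0217). Without any other single NLS-N-VEGF library it did not pass, with log2 fold changes from 0.20 to 0.42 and edgeR adjusted p from 0.224 to 1. Vegfa also passed in 1 of 3 fits that left out a pair and in 3 of the 10 other settings. Hif1a, the oxygen-regulated subunit of the hypoxia-inducible factor (HIF), had pair ratios of 0.27, 0.19 and 0.14 (log2 fold change 0.20, edgeR adjusted p 0.575). Of its exon bases, 2.51% are shared with a gene on the same strand and 5.60% with an antisense gene. Of 26 HIF targets outside glycolysis, 15 lay above 0 with a median of 0.00. They did not move one way, as the vasodilator Adm had pair ratios of -0.67, -1.03 and -0.10 (edgeR adjusted p 0.188) and the lipase inhibitor Angptl4 had ratios of 0.20, 0.40 and 0.34 (edgeR adjusted p 0.191).

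Lists of stress and growth responses gave no call. Of 25 targets of ATF4, the factor of the integrated stress response, 19 lay above 0 with a median of 0.09 and no call. Trib3, a feedback inhibitor of ATF4, had 37.1, 34.3 and 14.3 CPM without and 52.9, 40.4 and 18.3 CPM with dox (edgeR adjusted p 0.206). Each pair was higher with dox while the groups overlapped. Chaperones of the endoplasmic reticulum had a median of 0.00 over 21 genes, and targets of the antioxidant factor NRF2 one of -0.04 over 18, among them Hmox1 with pair ratios of -0.25, -0.33 and -0.33 (edgeR adjusted p 0.308). Immediate early genes, which respond within minutes to growth factors, had a median of -0.09 over 23 genes. The pairs split, with medians of -0.14, -0.20 and 0.05. Btg2, an antiproliferative gene that is also a p53 target, had 25.8, 24.7 and 11.3 CPM without and 14.998, 12.8 and 10.01 CPM with dox (log2 fold change -0.66, SE 0.14, edgeR adjusted p 0.0878). Of 20 mitosis genes 18, 17 and 2 lay above 0 in pairs 1a, 2a and 2b, and of 18 genes of S phase 12, 15 and 2, with fitted medians of 0.06 and 0.00. Pair 2b thus lay on the other side of 0 from the other pairs in both cell cycle lists. Over 17 targets of p53 the median was 0.03.

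Matrix and secreted genes moved in different directions. Of 17 matricellular proteins and proteoglycans, 5 lay above 0 with a median of -0.12, and 2 passed in opposite directions, Spon2 and Mgp. The pair medians were -0.20, -0.15 and 0.11, with 11 of 17 above 0 in pair 2b. Leaving out 1 NLS-N-VEGF library moved the fitted median between -0.23, without dox library 2b, and -0.05, without dox library 1a. Ogn, a small leucine-rich proteoglycan, had 11.5, 10.4 and 2.999 CPM without and 4.18, 3.46 and 3.55 CPM with dox (edgeR adjusted p 0.213). Pairs 1a and 2a were lower with dox and pair 2b was not. Collagens had a median of 0.02 over 26 genes, with pair medians of -0.12, -0.13 and 0.12. Of 13 cytokines and chemokines of fibroblasts, 3 lay above 0 with a median of -0.17. None passed, while 4 had an unadjusted p under 0.05 below and 1 above 0, against 2.91% and 4.36% of all genes. Il33, an alarmin cytokine, had 23.7, 23.8 and 7.71 CPM without and 14.6, 10.1 and 5.45 CPM with dox (log2 fold change -0.83, SE 0.21, edgeR adjusted p 0.192). Tgfb1 had 19.3, 20.5 and 22.4 CPM without and 25.4, 28.2 and 26.6 CPM with dox, with no overlap (edgeR adjusted p 0.423).

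The remaining lists are given by their medians. The median was -0.03 for HIF subunits and oxygen sensors, 0.05 for cytosolic tRNA synthetases and 0.05 for ERK feedback genes. It was 0.02 for matrix proteases and their inhibitors, 0.02 for insulin-like growth factors and their binding proteins, and -0.01 for the BCL2 family. Interferon-stimulated genes had a median of -0.09 with 5 of 13 above 0 and pair medians of -0.07, -0.15 and -0.12, and clock genes one of -0.03. Amino acid transporters (0.05), collagen modifying enzymes (-0.03) and genes of iron handling (0.04) each held 1 call, which were Slc1a3, Loxl4 and Heph.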

How the data were processed

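RNA of NLS-N-VEGF and N-VEGF cells was measured with TruSeq libraries and single reads of 80 bases. Per the labels and the study's methods, the authors trimmed reads with Trim Galore and cutadapt 1.10, aligned them with TopHat2 2.1.0 to GRCm38 and counted them with HTSeq 0.6.1. The authors deposited raw counts per gene, without normalization, and the strand setting was not given in the sources used here. Samples were grouped by their labels.

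Of 54447 rows, filterByExpr of edgeR 4.0.16 (R 4.3.3) kept 13608. All 12 libraries were scaled by TMM and fitted with 1 mean per group and the replicate label (number and suffix) as a block. Contrasts were tested two-sided with the quasi-likelihood F test and Benjamini-Hochberg adjustment over all genes tested. The libraries were paired by their labels. Departures from the group mean correlated between libraries of different groups with the same label by at least 0.319 (mean 0.54). In the 3 NLS-N-VEGF pairs the correlations were 0.456, 0.340 and 0.695. Labels 1a and 2a were not compared separately, so this check cannot tell pairing by number from the shared suffix. The common biological coefficient of variation was 7.86% with and 15.5% without the block. Pair ratios used log2 CPM with a prior count of 2. The 3-count floor covers counting error only. The code was tested on simulated data.

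Named were all called genes, the construct, Vegfa, Hif1a and up to 3 genes of each list with the smallest unadjusted p, except that some items are not reported here. The lists and members were chosen with earlier results of these data known. Alternatives were no block, a block on the suffix, other sets of libraries, RLE scaling, DESeq2 1.42.0, other filters and, chosen after seeing the data, offsets for GC content and length.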

Additional observations from a re-analysis of the deposited data

Results flagged for a closer look

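Genes of sterol and fatty acid synthesis were singled out because all 3 pair medians of NLS-N-VEGF cells lay above 0 (0.19, 0.19 and 0.03) and all 3 of N-VEGF cells below it (-0.11, -0.0049 and -0.14). The median of the differences, NLS-N-VEGF minus N-VEGF cells on the log2 scale, was 0.23. The difference was not tested for the list as a whole. Leaving out single libraries moved it between 0.19 and 0.33.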

How the results depend on the processing

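The results were recomputed under 18 other settings and 1 chosen after seeing the data. In NLS-N-VEGF cells 17 genes were called for dox. The count was 3 without the replicate block that pairs the libraries, 255 in the 6 NLS-N-VEGF libraries alone, 125 in pairs 1a and 2a alone, 58 without the no-dox library 1a of N-VEGF cells, 42 with DESeq2, 162 with every gene of at least 1 count and 41 with the offsets for GC content and length. Leaving out an NLS-N-VEGF library or pair gave 5 to 118. In the 6 NLS-N-VEGF libraries alone, the spread was estimated without the N-VEGF libraries. There 7 genes of the actin list, 5 of the mitochondrial genome, 3 of the sterol list and 3 immediate early genes passed. All 17 were among the 255, 125, 58, 42 and 162 genes and were called with RLE scaling too, whereas 3 of them were called without the block, 16 with the offsets, 15 with a block on the suffix alone and 14 with at least 10 counts in every library. For the difference of the dox effects the count was 0, with 6 in pairs 1a and 2a alone, 9 with every gene of at least 1 count and 0 to 3 when libraries were left out. None of the 71 named genes changed its sign under these alternatives. The median of the sterol list lay between 0.09 and 0.21. With 3 pairs and 6 residual degrees of freedom, small changes of single genes could be missed.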

Other observations

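Some genes outside the lists stood just short of the threshold, and they are named here after their values were seen. The water channel Aqp1 had 120.8, 116.1 and 219.8 CPM without and 203.1, 196.5 and 248.4 CPM with dox (edgeR adjusted p 0.0531), and the pattern receptor Tlr2 had 30.3, 31.5 and 7.57 CPM without and 17.7, 15.9 and 7.22 CPM with dox (edgeR adjusted p 0.0531). Acsbg1, which activates long-chain fatty acids, had pair ratios of 1.10, 1.14 and 0.09 (edgeR adjusted p 0.0946). Gli2, a transcription factor of the hedgehog pathway, had pair ratios of 0.52, 0.54 and 0.64 (edgeR adjusted p 0.0954).

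Further genes that did not pass were likewise chosen after their values were seen. The complement protease C1s1 had 19.0, 17.4 and 6.997 CPM without and 6.27, 6.85 and 5.57 CPM with dox (edgeR adjusted p 0.0954). The complement factor C3 had 4.66, 3.96 and 1.21 CPM without and 1.23, 0.883 and 1.302 CPM with dox (edgeR adjusted p 0.229). Cd55, which protects cells from complement, had 2.59, 2.39 and 5.50 CPM without and 5.68, 5.08 and 7.52 CPM with dox (edgeR adjusted p 0.155). Of the fibroblast surface genes, Pdgfra had pair ratios of -0.55, -0.53 and -0.19 (edgeR adjusted p 0.229) and Thy1 of 0.40, 0.28 and 0.20 (edgeR adjusted p 0.175).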
